A study of Arabidopsis thaliana with 32 samples.

Results

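Sulfur starvation in Arabidopsis thaliana is usually read from a small set of transcripts that rise when sulfate runs short, and 10 of them were followed here in plants that kept their sulfate but lost their magnesium. The members were taken by locus from the table of 27655 genes: SDI1, SDI2, LSU1, LSU2, SULTR1;1, SULTR1;2, SULTR4;2, BGLU28, GGCT2;1 and SHM7. All 10 were found. Every plant carried p35S:HF-RPL18, a tagged ribosomal protein under the 35S promoter, which is active in most but not equally in all cell types. Plants were 6 weeks old, grown in hydroponics with 10 h of light and 14 h of dark, and spent 1 day in magnesium-free medium (MgD) or in normal medium (CK). In MgD medium sodium sulfate took the place of magnesium sulfate, so sulfate was supplied in both media. Root and shoot were each sampled as ribosome-associated RNA pulled down through the tag (TRAP) and as total RNA. The 8 groups of 3 libraries are therefore root TRAP, root total, shoot TRAP and shoot total RNA, each under MgD and CK.

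When sulfate is scarce, the transcription factor SLIM1 raises genes for sulfate uptake, for release of stored sulfate and for recycling of sulfur held in glutathione and glucosinolates, while new glucosinolate synthesis is held back. SDI1 and SDI2 act at that last step, as repressors of aliphatic glucosinolate synthesis, and SDI1 does so by binding the regulator MYB28. LSU1 and LSU2 are small coiled-coil proteins that bind many partners. SULTR1;1 and SULTR1;2 are the high-affinity transporters that take sulfate into the root, and SULTR4;2 lets it out of the vacuole. BGLU28 is a beta-glucosidase that opens glucosinolates for breakdown, GGCT2;1 degrades glutathione, and SHM7 belongs to the serine hydroxymethyltransferases of one-carbon metabolism. SDI1, LSU1, GGCT2;1 and SHM7 are also known to follow O-acetylserine, the precursor of cysteine.

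The gene models matched the RefSeq annotation of TAIR10.1, while the build that the submitters used is not given. Gene lengths implied by the deposited counts and TPM values equalled the merged exon lengths of that annotation for 99.2% of genes, within 0.001 of the length. The members lie on all 5 chromosomes. SDI1 (AT5G48850) spans chr5:19805437-19807853, LSU2 (AT5G24660) chr5:8443279-8444101, GGCT2;1 (AT5G26220) chr5:9162969-9164884 and SHM7 (AT1G36370) chr1:13696042-13698739, all on the minus strand. On that strand also lie SDI2 (AT1G04770, chr1:1336274-1337849), LSU1 (AT3G49580, chr3:18374908-18375940) and SULTR4;2 (AT3G12520, chr3:3967816-3972135), while SULTR1;1 (AT4G08620, chr4:5500313-5506313), SULTR1;2 (AT1G78000, chr1:29327515-29333220) and BGLU28 (AT2G44460, chr2:18346306-18350026) lie on the plus strand. The 250 bases before each gene's start were searched on both strands for GAGAC, the core of the sulfur-responsive element, and for the 8 words of TEBS, the site bound by TEIL, a tobacco relative of SLIM1: ACGAACCT, ACGAATCT, ACGTACCT, ACGTATCT, ATGAACCT, ATGAATCT, ATGTACCT and ATGTATCT. GAGAC was present in 3 of the 10 member windows (SDI1, BGLU28 and GGCT2;1), against 25.75% of 27444 windows of all genes. A TEBS word was present in 2 (SULTR4;2 and SHM7), against 5.93% of windows. The SULTR4;2 window overlaps another gene, AT3G12530. No match overlapped another. The windows of 4 members that recur below are given 5′ to 3′ on the gene's own strand, with matches in capitals. They were read from the TAIR10.1 genome of RefSeq.
SDI1, chr5:19807854-19808103, minus strand: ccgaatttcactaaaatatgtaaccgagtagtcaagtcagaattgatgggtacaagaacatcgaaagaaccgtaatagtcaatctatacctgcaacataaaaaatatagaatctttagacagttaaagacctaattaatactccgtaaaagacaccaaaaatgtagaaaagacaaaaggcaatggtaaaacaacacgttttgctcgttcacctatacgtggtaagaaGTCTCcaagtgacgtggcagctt
GGCT2;1, chr5:9164885-9165134, minus strand: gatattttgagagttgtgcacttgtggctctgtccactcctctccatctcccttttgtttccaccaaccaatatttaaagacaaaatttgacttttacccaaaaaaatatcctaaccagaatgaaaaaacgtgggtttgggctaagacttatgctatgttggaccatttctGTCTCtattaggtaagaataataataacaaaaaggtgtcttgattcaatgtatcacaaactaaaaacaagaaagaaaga
SHM7, chr1:13698740-13698989, minus strand: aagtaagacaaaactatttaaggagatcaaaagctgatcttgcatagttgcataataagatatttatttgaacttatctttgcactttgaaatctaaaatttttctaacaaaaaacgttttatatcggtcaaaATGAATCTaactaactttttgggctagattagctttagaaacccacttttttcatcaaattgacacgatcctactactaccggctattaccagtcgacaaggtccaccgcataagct
LSU2, chr5:8444102-8444351, minus strand: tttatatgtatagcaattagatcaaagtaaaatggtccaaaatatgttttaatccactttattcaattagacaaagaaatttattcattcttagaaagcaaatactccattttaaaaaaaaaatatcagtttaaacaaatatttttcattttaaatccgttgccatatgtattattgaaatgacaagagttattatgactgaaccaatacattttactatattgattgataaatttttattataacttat
Counted from the gene's start, the match lay at -23 to -19 in SDI1 and at -79 to -75 in GGCT2;1, both as GTCTC, the reverse complement of GAGAC. In SHM7 the word ATGAATCT lay at -117 to -110, and the LSU2 window held no match to either motif.

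Library totals ranged from 6147531 to 41472378 counts. The 8 root markers summed to between 309 and 2307 TPM in root libraries, against 36.0 to 43.7 TPM in shoot libraries. The 8 leaf photosynthesis markers summed to between 408 and 2254 TPM in root, against 63464 to 80392 TPM in shoot. By these sums tissue labels and markers went together, but not every root marker did. SCR averaged 21.9 TPM in root total CK and 20.7 TPM in shoot total CK, and 5.42 and 17.5 TPM in TRAP CK. By edgeR (adjusted p under 0.05), 7 of 8 root markers were higher in root and 1 lower in total RNA under CK, and 5 and 1 in TRAP RNA. In 1 library, root total MgD replicate 3, the count column and the TPM column do not hold the same reads: the counts sum to 6147531, and the deposited TPM values come from 11727654 reads. TPM values printed below were computed from the counts and equal the deposited ones in the other 23 libraries. The limma alternatives used the deposited TPM, and so those 11727654 reads for root total MgD replicate 3. For the comparison of MgD with CK in root total RNA, each tested member's deposited TPM in that library is given as well. Replicates are called independent in the series, but separate plants are not mentioned, and each p-value therefore reflects library-to-library spread alone, part of which may be technical.

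Most of the marker genes were readily measured in roots under both media. LSU2, SHM7, SDI2 and SDI1 lay between 18.6 and 86.4 TPM in the root total CK libraries, and the uptake transporter SULTR1;2 was the highest of the 10 in total RNA, at 585 ± 171 TPM under MgD and 385 ± 154 TPM under CK (SD, n = 3 each). In root total MgD the order by mean level ran SULTR1;2, LSU2, SHM7, SULTR1;1, SDI1, SDI2, GGCT2;1, LSU1, SULTR4;2 and BGLU28, and in root total CK it ran SULTR1;2, SULTR1;1, SHM7, LSU2, SDI2, SDI1, GGCT2;1, SULTR4;2, LSU1 and BGLU28. Of the neighbours in these orders, only SULTR1;2 with the gene after it, SDI2 with GGCT2;1 in MgD, LSU2 with SDI2 and SDI1 with GGCT2;1 in CK, and the last gene, BGLU28, were separated by more than the ranges of their 3 libraries. In shoots LSU2 was the highest of the 10 in all 4 groups, at 33.2 to 49.0 TPM on average, followed by SHM7 at 14.6 to 24.1 TPM and SDI2 at 7.74 to 12.7 TPM. BGLU28 was all but silent: its counts summed to 0 in root TRAP RNA of both media and to at most 18 in any group of 3 libraries. It could not be tested in any comparison, and SULTR1;1, with 0 counts in all 6 shoot TRAP libraries, could not be tested within shoots. All 9 and 8 other members passed the filter on low counts in root and shoot.

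**Figure D1:**
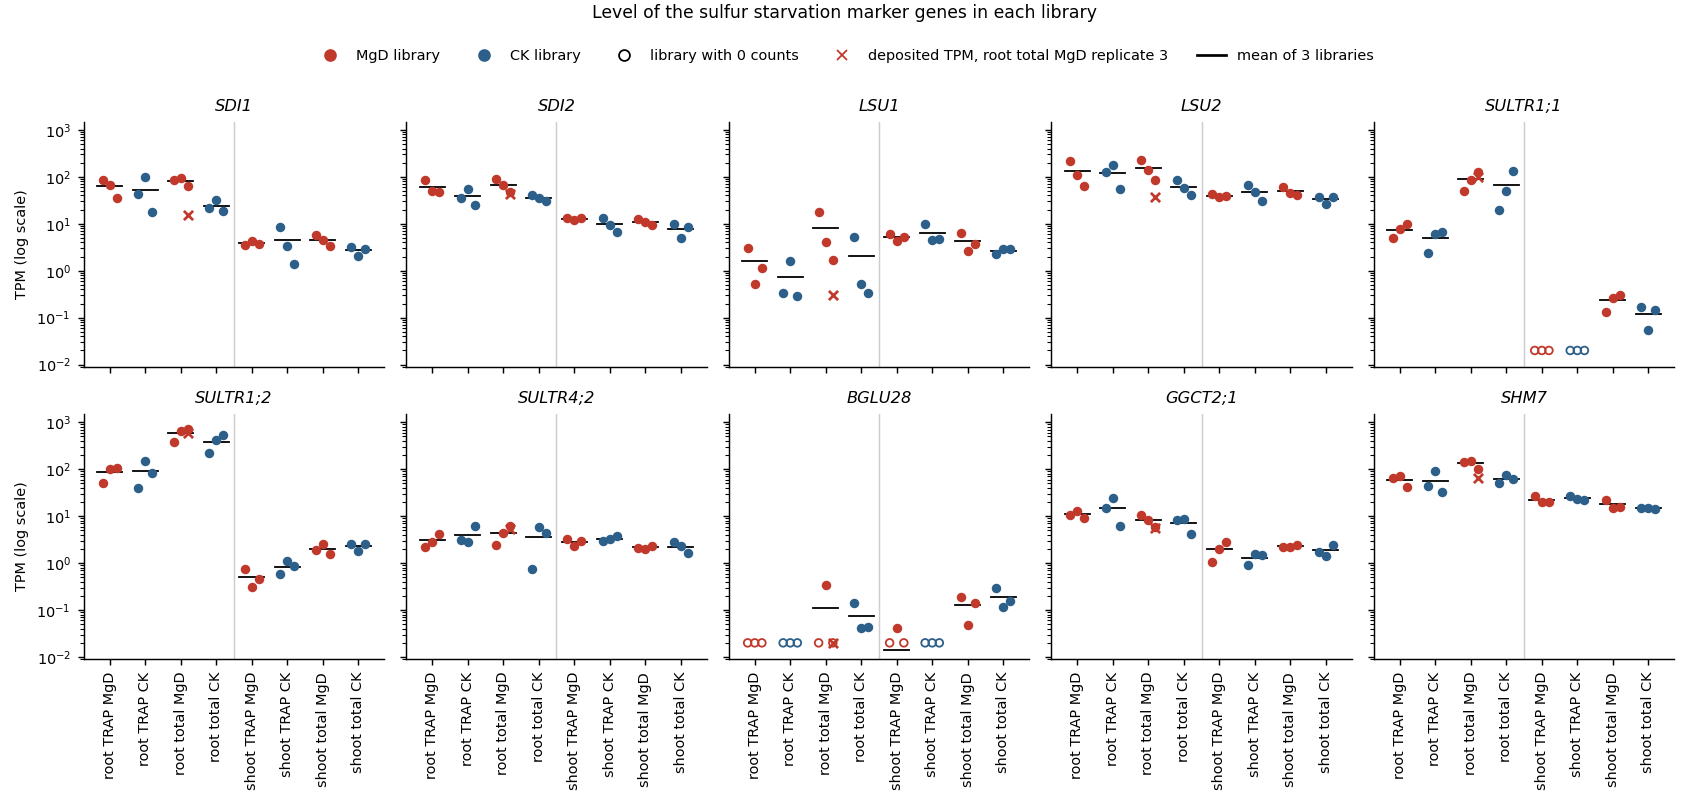
Level of each marker gene in TPM, computed from the deposited counts, on a log axis, in the 3 libraries of each of the 8 groups, with red points for MgD and blue points for CK; bars are means of 3, open circles mark libraries with 0 counts, and crosses mark the deposited TPM of root total MgD replicate 3. SULTR1;1 and SULTR1;2 sit far lower in shoot than in root, and lower in root TRAP RNA than in root total RNA.

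Did 1 day without magnesium move these genes while sulfate stayed in the medium? In root total RNA all 9 tested members had higher fitted levels under MgD than under CK, with a median log2 fold change of 0.88 beside -0.01 over all 20311 genes tested, but none passed the test. The highest values belonged to LSU1, SDI1, LSU2, SHM7 and SDI2, and the 4 genes with the smallest values were the 3 sulfate transporters and GGCT2;1. In root TRAP RNA, shoot total RNA and shoot TRAP RNA the medians were 0.10, 0.31 and -0.24, and no member passed there either. The edgeR quasi-likelihood test with Benjamini-Hochberg adjustment called 0% of genes in each of the 4 comparisons.

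**Figure D2:**
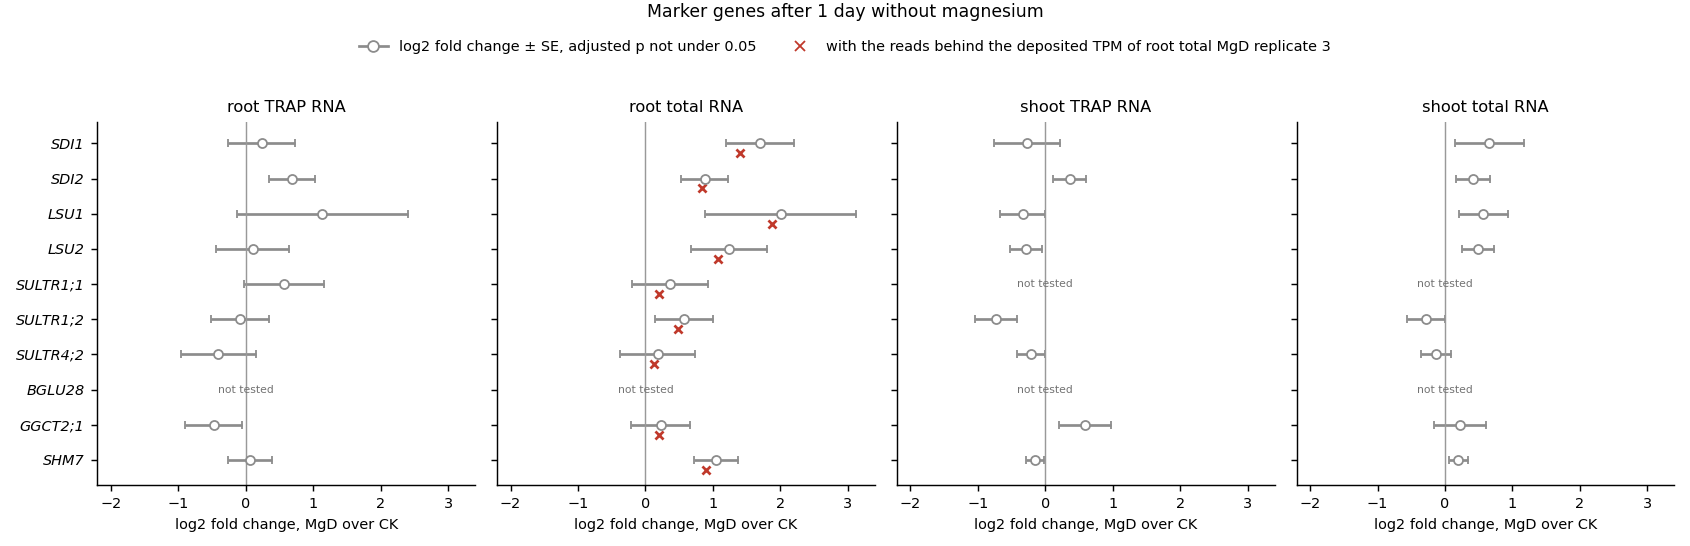
Log2 fold change of each marker gene, MgD over CK, with its standard error (edgeR, 3 libraries in each group), in root TRAP, root total, shoot TRAP and shoot total RNA; all symbols are open because no adjusted p was under 0.05. Crosses in the root total panel give the values with the reads behind the deposited TPM of replicate 3, which range from 0.12 to 1.87 and are all positive.

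SDI1, the glucosinolate repressor widely used as a marker of sulfur shortage, had 86.0, 94.4 and 62.6 TPM in root total MgD, against 22.0, 32.6 and 18.6 TPM in root total CK. The MgD libraries all lay above the CK libraries, and the log2 fold change was 1.70 ± 0.51 (SE, n = 3 and 3; edgeR adjusted p 0.999857). This separation rests on which reads stand for MgD replicate 3: the deposited TPM of SDI1 there is 15.3, below every CK library, and with those reads the log2 fold change was 1.39. Its relative SDI2 had 89.6, 65.3 and 47.3 TPM in root total MgD and 41.4, 35.4 and 30.0 TPM in root total CK. Again no MgD library fell into the CK range (0.88 ± 0.34), also with the deposited 43.1 TPM of replicate 3. The strand setting of the counting is not given here, and SDI2 overlaps AT1G04760 on the opposite strand, so reads of both cannot be told apart.

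The LSU genes varied widely between libraries of 1 group. LSU1 had 18.2, 4.17 and 1.69 TPM in root total MgD, against 5.30, 0.516 and 0.329 TPM in root total CK, which rest on 306, 40 and 6 counts and on 62, 10 and 6 counts. The deposited TPM of MgD replicate 3 is 0.300, below every CK library. In each medium replicate 1 was the highest and the ranges overlapped, and the log2 fold change of 2.004 ± 1.12 ran from 0.49 to 4.34 as single libraries were left out. LSU2 had 233, 137 and 84.8 TPM in root total MgD, against 86.4, 57.5 and 41.9 TPM in root total CK. Only the lowest MgD library reached into the CK range, and the log2 fold change was 1.24 ± 0.56, but the deposited TPM of that library is 37.1, below every CK library (1.08 with those reads). LSU2 shares 79.0% of 610 aligned bases with its neighbour LSU4, and the treatment of reads that match both is not stated.

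SHM7, the serine hydroxymethyltransferase, had 142, 152 and 103 TPM in root total MgD, against 50.9, 74.3 and 63.3 TPM in root total CK. All 3 MgD libraries were above the CK libraries, with a log2 fold change of 1.04 ± 0.33 (edgeR adjusted p 0.999857), and the deposited 63.7 TPM of MgD replicate 3 falls inside the CK range (0.90 with those reads). The glutathione-degrading GGCT2;1 had 10.6, 8.47 and 5.74 TPM in root total MgD and 8.32, 8.62 and 4.15 TPM in root total CK. These ranges overlapped almost fully (0.23 ± 0.44), also with the deposited 5.66 TPM of MgD replicate 3.

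The uptake transporters varied more between libraries than between media. SULTR1;1 had 49.7, 87.5 and 129 TPM in root total MgD and 19.6, 50.2 and 135 TPM in root total CK. SULTR1;2 had 389, 660.1 and 705 TPM in root total MgD, against 219.9, 409.8 and 525 TPM in root total CK. For both genes replicate 1 was the lowest library of each medium, and the ranges overlapped. The deposited TPM of MgD replicate 3 is 100.3 for SULTR1;1 and 600.3 for SULTR1;2, and the ranges overlap with these values too. Their log2 fold changes were 0.36 ± 0.56 and 0.57 ± 0.43, and that of SULTR4;2, the vacuolar exporter, 0.18 ± 0.56 on 60 to 118 counts in the MgD libraries. SULTR4;2 had 2.46, 4.46 and 6.14 TPM in root total MgD (5.38 as deposited in replicate 3) and 0.745, 5.82 and 4.46 TPM in root total CK. It shares 84.8% of 1845 aligned bases with SULTR4;1, and it overlaps AT3G12510 on the opposite strand and lncRNA genes. The treatment of reads that match more than 1 of these genes is not stated.

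Read against the whole table, SDI1, SDI2 and SHM7 were the 3 of 9 tested members whose MgD libraries all lay above the CK libraries in CPM of the library total, where 4.91% of all genes did so, and none lay wholly below, where 5.04% did. SDI1, SDI2, LSU2 and SHM7 had an unadjusted edgeR p under 0.05, where 0.758% of genes passed that mark in the same direction and 1.72% in the other. These members were followed because earlier results had put them in view, so the comparison with all genes is a description. Of the 20311 genes, 503 had an unadjusted p under 0.05 in either direction, DESeq2 called 1 gene and limma on log2(TPM + 1) called 1, and neither called a member. With the reads behind the deposited TPM of replicate 3, all 9 members were positive with a median of 0.84, but of the 3 members above, SDI2 alone stayed above CK by the deposited TPM: SDI1 lay below every CK library and SHM7 inside their range. Without that library 8 of 9 were positive, with a median of 1.09 and SULTR4;2 at -0.09, and 7 of 9 were positive without CK replicate 1 (median 0.98). Another marker list moved beside this result in root total RNA: the 8 leaf photosynthesis markers summed to 408 to 778 TPM under MgD and to 878 to 1037 TPM under CK, and 6 of the 8 had an unadjusted p under 0.05 with lower levels under MgD. None of the 8 was at 0 in any root library, and the part of these leaf transcripts in the members' values was not tested.

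In root TRAP RNA the members did not separate by medium. SDI1 had 84.1, 68.2 and 34.6 TPM in root TRAP MgD and 43.6, 98.3 and 17.9 TPM in root TRAP CK, SDI2 had 86.4, 49.1 and 48.4 TPM under MgD and 34.6, 55.6 and 25.1 TPM under CK. SHM7 had 64.4, 70.8 and 41.8 TPM under MgD and 42.9, 93.6 and 32.9 TPM under CK. CK replicate 2 was the highest of all 6 libraries for SDI1 and SHM7, and the ranges of every tested member overlapped. Of the 9 log2 fold changes, 6 were positive, from 0.07 for SHM7 to 1.14 for LSU1, with SDI2 at 0.68 ± 0.34, and SULTR1;2, SULTR4;2 and GGCT2;1 were at -0.09, -0.41 and -0.48 (edgeR adjusted p 0.478 or more). No member lay wholly above or wholly below CK, where 5.47% of genes lay above and 8.25% below, and none had an unadjusted p under 0.05, where 4.57% of genes did as higher and 6.68% as lower. Without CK replicate 2, 7 of 9 were positive and the median was 0.59 instead of 0.10, with SDI1 at 0.96. No gene was called by edgeR, 2284 had an unadjusted p under 0.05, and DESeq2 called 170 and limma 0, no member among them.

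In shoot total RNA the log2 fold changes of 6 of 8 tested members were positive, again led by SDI1, LSU1, LSU2 and SDI2. SDI1 had 5.87, 4.48 and 3.28 TPM in shoot total MgD, against 3.26, 2.03 and 2.91 TPM in shoot total CK (0.66 ± 0.51). LSU2 had 60.6, 45.3 and 41.3 TPM under MgD and 36.4, 26.8 and 36.4 TPM under CK (0.49 ± 0.24). In CPM of the library total the MgD libraries of SDI1, LSU2 and SHM7 all lay above CK, where 6.22% of genes did, and none below, where 2.08% did, though SDI1 was parted by only 3.28 against 3.26 TPM and the TPM ranges of SHM7 touched. SHM7 had 22.2, 15.1 and 15.9 TPM under MgD and 15.1, 14.9 and 14.0 TPM under CK (0.19 ± 0.14), and SDI2 and LSU1 had log2 fold changes of 0.41 ± 0.25 and 0.57 ± 0.37. The transporters SULTR1;2 and SULTR4;2 were at -0.28 ± 0.28 and -0.13 ± 0.22 (edgeR adjusted p 0.999953 for each member). Without CK replicate 2 the members' median was 0.20 instead of 0.31. No gene was called, with 355 at an unadjusted p under 0.05 and none called by DESeq2 or limma.

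In shoot TRAP RNA 2 of 8 tested members had positive log2 fold changes, GGCT2;1 (0.59 ± 0.39) and SDI2 (0.36 ± 0.24), and 6 had negative ones. SULTR1;2, which is scarce in leaves, had 0.758, 0.306 and 0.465 TPM in shoot TRAP MgD, against 0.581, 1.09 and 0.858 TPM in shoot TRAP CK. The ranges overlapped at a log2 fold change of -0.73 ± 0.31, the only member value here with an unadjusted p under 0.05, where 3.83% of genes passed that mark as lower and 3.58% as higher. No member lay wholly above or below CK, where 5.66% and 4.47% of genes did. CK replicate 1 was the highest CK library for 5 of the 8 tested members (SDI1, SDI2, LSU1, LSU2 and SHM7) and the lowest for SULTR1;2, SULTR4;2 and GGCT2;1. SDI1 had 3.60, 4.23 and 3.75 TPM under MgD and 8.61, 3.43 and 1.38 TPM under CK, and LSU1 had 6.10, 4.24 and 5.13 TPM under MgD and 9.93, 4.47 and 4.64 TPM under CK. Without that library 5 of 8 members were positive, with a median of 0.12 and SDI1 at 0.68. No gene was called, 1433 had an unadjusted p under 0.05, and DESeq2 called 16 and limma 0, with no member among them.

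Differences between responses were tested directly. In root, the MgD response in TRAP RNA minus that in total RNA was negative for 8 of 9 members, with a median of -0.70 beside 0.01 over all genes, and the values were -1.46 ± 0.70 for SDI1 and -0.98 ± 0.46 for SHM7 (edgeR adjusted p 0.934 or more). With the reads behind the deposited TPM of root total MgD replicate 3 the median was -0.67. In the same test 7 of the 8 leaf photosynthesis markers were positive, with a median of 0.77 and 2 at an unadjusted p under 0.05, and both companion cell markers, with a median of 0.60 and 1 at that mark, and their part in the members' values was not tested. In shoot it was negative for 7 of 8 members, among them LSU2 at -0.77 ± 0.34 (edgeR adjusted p 0.999957). No gene passed in either test, where 968 and 764 genes had an unadjusted p under 0.05, DESeq2 called 5 and 0, and limma called 0 and 0. Without CK replicate 2 of root TRAP RNA 6 of 9 were negative with a median of -0.26, and without CK replicate 1 of shoot TRAP RNA 5 of 8. The response in root minus that in shoot was likewise not called for any member, at 0.81 ± 0.38 for SHM7 and 1.00 ± 0.79 for SDI1 in total RNA (edgeR adjusted p 0.999968), where 0.0236% of 21163 genes passed, 5 in number and 0 to 22 as single libraries were left out. In TRAP RNA no gene passed that test by edgeR, 2301 had an unadjusted p under 0.05, and DESeq2 called 144 and limma 0.

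The other genes of sulfur metabolism were read from 7 lists of 51 genes. None of them was called in any of the 4 comparisons of MgD with CK. In root total RNA the genes of sulfate activation and reduction stood nearest to the members: 10 of 12 were positive, with a median of 0.32. Of these genes 4 had an unadjusted p under 0.05, all higher under MgD, where 0.758% of all genes passed that mark as higher. The 4 include APR3, an adenylylsulfate reductase (0.93 ± 0.34), and ATPS3, an ATP sulfurylase (0.52 ± 0.17). LSU3 and LSU4, the other LSU genes, were at 1.56 ± 0.92 and -0.29 ± 0.56. The 9 other sulfate transporters had a median of -0.000132 there, the 10 genes of cysteine and glutathione synthesis 0.02, the 4 genes of glutathione breakdown -0.05 and the 4 regulators, SLIM1 included, 0.03. The 9 tested genes of aliphatic glucosinolate synthesis, the step that SDI1 and SDI2 hold back, had a median log2 fold change of 0.05. In shoot TRAP RNA 5 of 9 other sulfate transporters had an unadjusted p under 0.05 with lower levels under MgD, among them SULTR3;3 (-0.51 ± 0.15), with a median of -0.23, where 3.83% of all genes did. Both companion cell markers were lower at that mark in the same comparison (median -0.30), and their part was not tested.

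Which of these transcripts do tagged ribosomes hold? In root, TRAP RNA held less of both uptake transporters than total RNA, while SDI1 and GGCT2;1 were higher in TRAP RNA under CK. SULTR1;1 had 2.35, 5.93 and 6.78 TPM in root TRAP CK, against 19.6, 50.2 and 135 TPM in root total CK. The ranges lay far apart, and the log2 fold change was -3.24 ± 0.62 (edgeR adjusted p 0.00148). SULTR1;2 had 39.6, 151 and 84.7 TPM in root TRAP CK and 219.9, 409.8 and 525 TPM in root total CK (-1.57 ± 0.44, edgeR adjusted p 0.0114). Under MgD the values were -3.03 ± 0.62 and -2.23 ± 0.45 (edgeR adjusted p 0.00167 and 0.00142), in the same direction for both genes, and every alternative kept these 4 calls.

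**Figure D3:**
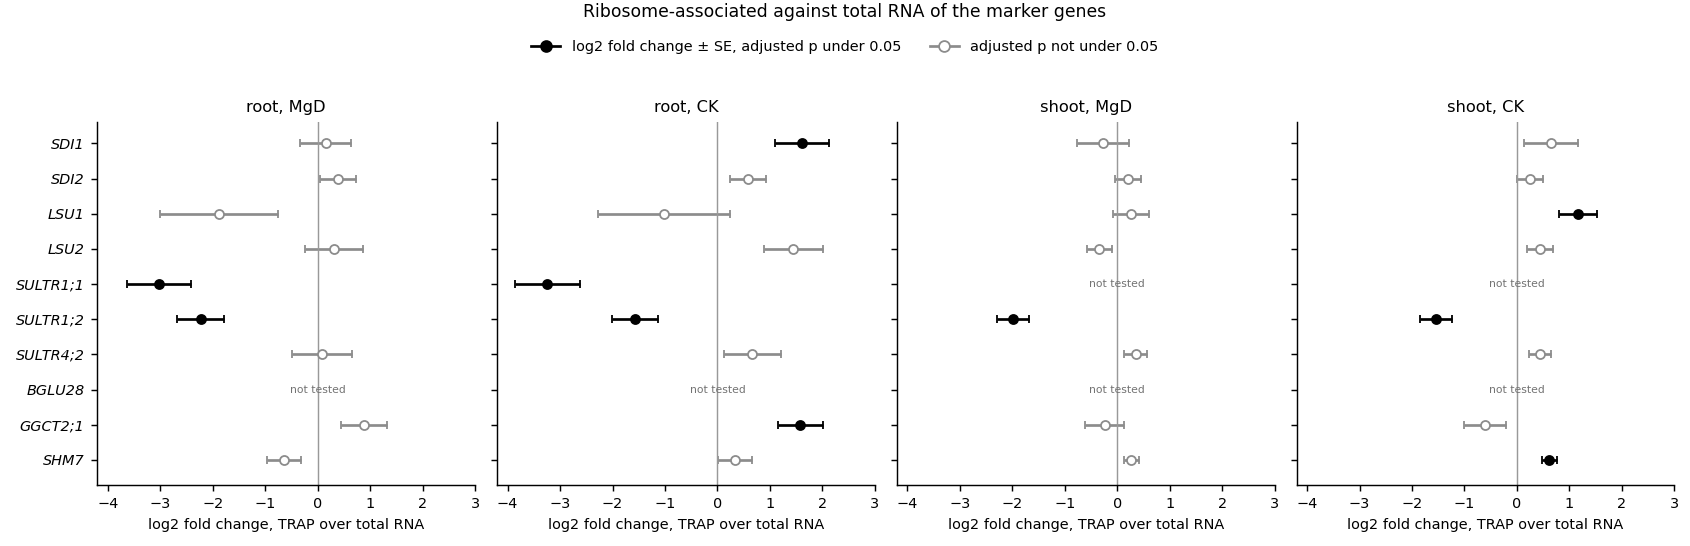
Log2 fold change of each marker gene, TRAP over total RNA, with its standard error (edgeR, 3 libraries in each group), in root MgD, root CK, shoot MgD and shoot CK; filled symbols have an adjusted p under 0.05. SULTR1;2 lies left of 0 in all 4 panels, from -1.55 to -2.23, and SULTR1;1 in both root panels.

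GGCT2;1 had 15.1, 24.0 and 6.24 TPM in root TRAP CK and 8.32, 8.62 and 4.15 TPM in root total CK (1.58 ± 0.44, edgeR adjusted p 0.0107). SDI1 had 43.6, 98.3 and 17.9 TPM in root TRAP CK and 22.0, 32.6 and 18.6 TPM in root total CK (1.61 ± 0.51, edgeR adjusted p 0.0215). Both pairs of ranges overlapped in TPM. In all, 2 of 9 tested members were higher and 2 lower in TRAP RNA under CK, where 48.2% of genes were called, 22.6% higher and 25.5% lower. Neither higher call was kept by limma on unscaled log2(TPM + 1). There the median of all genes was -0.46, and limma called 1889 genes higher and 9202 lower, against 4597 and 5188 by edgeR. That run changes the test as well as the scaling, and the part of each was not tested. SDI1 was also lost without TRAP CK replicate 2 (0.89, edgeR adjusted p 0.119) or total CK replicate 3 (1.42, edgeR adjusted p 0.0815). With the title's replicate number as a block, LSU2 (1.43, edgeR adjusted p 0.000534) and SDI2 (0.58, edgeR adjusted p 0.0417) passed as well. That block ties root TRAP to root total libraries of the same number. It also ties same-numbered MgD and CK libraries, which the numbers do not pair, so these adjusted p-values are not those of a pairing within a medium. Under MgD 0 of 9 members were higher and 2 lower, where 52.5% of genes were called, 24.5% higher and 28% lower (2174 and 9567 genes by limma, against 4973 and 5695 by edgeR). With the title's number as a block GGCT2;1 (0.98, edgeR adjusted p 0.00899) and SHM7 (-0.65, edgeR adjusted p 0.0191) passed under MgD, with the same limit.

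Markers of root cell types also differed between TRAP and total RNA. The root hair genes EXPA7, COBL9 and RHD2 had log2 fold changes of -6.22, -4.96 and -1.57 in TRAP over total RNA under CK, the endodermal gene CASP1 had -2.76, and 5 of 8 root markers were called lower and 0 higher, while both companion cell markers, SUC2 and FTIP1, were called higher (1.28 and 2.11). The 8 root markers summed to 309 to 884 TPM in root TRAP CK and to 1218 to 1359 TPM in root total CK, with EXPA7 and COBL9 at 0 in replicates 2 and 3 of root TRAP CK. The leaf photosynthesis markers summed to 1144 to 2254 TPM in root TRAP CK and to 878 to 1037 TPM in root total CK. Of these 8 markers, 5 were called higher in TRAP RNA and 1 lower. RBCS2B averaged 1.57 TPM in root TRAP CK and 46.1 TPM in root total CK. The part of the cell types that carry the tag in the transporters' values was not tested. Of the other sulfur genes, 7 of 12 for sulfate activation and reduction, 6 of 10 for cysteine and glutathione synthesis and 7 of 9 for aliphatic glucosinolate synthesis were called higher in root TRAP CK, and 1, 0 and 2 lower. Of all genes 22.6% were called higher and 25.5% lower in that comparison. In bulk RNA, fewer cells of a type and less RNA per cell cannot be told apart.

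In shoot, SULTR1;2 was again lower in TRAP RNA: it had 0.581, 1.09 and 0.858 TPM in shoot TRAP CK and 2.52, 1.80 and 2.53 TPM in shoot total CK (-1.55 ± 0.30, edgeR adjusted p 0.00046). Under MgD its log2 fold change was -1.99 ± 0.30 (edgeR adjusted p 4.91e-05). SULTR1;1 had 0 counts in all shoot TRAP libraries, against 32 counts over the 3 shoot total MgD libraries and 12 over the 3 shoot total CK libraries. Against a floor of 3 counts over a group, it was 14.4-fold lower in TRAP RNA under MgD and 6.29-fold lower under CK. These folds are no firm bounds, since most low counts were even and counting error may exceed the floor. SHM7 was higher in shoot TRAP CK, with 27.0, 23.5 and 21.8 TPM, than in shoot total CK, with 15.1, 14.9 and 14.0 TPM (0.62 ± 0.14, edgeR adjusted p 0.00174), and so was LSU1 (1.16 ± 0.36, edgeR adjusted p 0.0144). These 2 higher and 1 lower calls of 8 tested stand beside 44.9% of all genes called, 21.3% higher and 23.6% lower. The LSU1 call was lost without TRAP CK replicate 1 (0.65, edgeR adjusted p 0.142) or total CK replicate 1 (1.04, edgeR adjusted p 0.0571), and 6 members were called without TRAP CK replicate 3. Under MgD SULTR1;2 was the only call, 1 of 8 lower, where 45.8% of genes were called, 22.1% higher and 23.7% lower. Without shoot total MgD replicate 1, 3 members were called, and 2 without any one of the 3 shoot TRAP MgD libraries. All shoot TRAP libraries carry another lane label than the shoot total libraries, so RNA type and lane cannot be told apart in shoot.

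Most of the 10 genes were more abundant in root than in shoot. In total RNA under CK, 6 of 9 tested members were higher in root and none lower, where 64.8% of 21163 genes were called, 33.6% higher and 31.1% lower. The uptake transporters led: SULTR1;1 had 19.6, 50.2 and 135 TPM in root total CK, against 0.168, 0.0550 and 0.143 TPM in shoot total CK (8.24 ± 0.82, edgeR adjusted p 1.96e-07). SULTR1;2 had 219.9 to 525 TPM in root and 1.80 to 2.53 TPM in shoot (6.54 ± 0.48, edgeR adjusted p 1.59e-10). SDI1 (2.32 ± 0.58), SDI2 (1.39 ± 0.34), SHM7 (1.26 ± 0.27) and GGCT2;1 (1.102 ± 0.44) followed, and the last was lost when any of 4 single libraries was left out. LSU2 (0.10 ± 0.47) and SULTR4;2 (-0.17 ± 0.43) were near equal in fitted level, and LSU1 had a negative value (-1.22 ± 0.92, edgeR adjusted p 0.254) that became -3.53 (edgeR adjusted p 0.0031) without root total CK replicate 1.

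In TRAP RNA under CK 8 of 9 tested members were called, 7 higher in root and LSU1 lower. LSU1 had 0.329, 1.58 and 0.296 TPM in root TRAP CK, against 9.93, 4.47 and 4.64 TPM in shoot TRAP CK, without overlap, and was lower in root (-3.40 ± 0.99, edgeR adjusted p 0.00475), on 28 counts over the root group. SDI1 (3.24 ± 0.56), GGCT2;1 (3.28 ± 0.45), SDI2 (1.70 ± 0.34), LSU2 (1.08 ± 0.47), SHM7 (0.95 ± 0.27), SULTR1;2 (6.498 ± 0.48) and SULTR1;1 were higher in root. SULTR1;1 had 520 counts over the root TRAP CK group and 0 over the shoot TRAP CK group. Against the floor of 3 counts it was 243-fold higher, again without a firm bound. These calls stand beside 68.8% of all genes called, 35.9% higher and 32.9% lower. Without root TRAP CK replicate 2, LSU2 (0.71) and SHM7 (0.42) were no longer called. LSU2, at an edgeR adjusted p of 0.0466 in the main test, was also lost without root TRAP CK replicate 1 (edgeR adjusted p 0.111). The same held without shoot TRAP CK replicate 2 (0.103) or replicate 3 (0.168), and with no filter on low counts (0.063). Root TRAP and shoot TRAP libraries carry different lane labels, so tissue and lane cannot be told apart in this comparison. On unscaled TPM the median of all genes shifted to 0.73 in total RNA and 0.20 in TRAP RNA, beside 0.07 and 0.06 with TMM scaling, and limma called 13361 genes higher and 3854 lower in total RNA, against 7121 and 6592 by edgeR. It called 6 and 8 members, in the same directions.

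In root the members fell into groups that varied from library to library in like ways, also after the mean of each group of 3 libraries was taken off. Each library's value was taken as its deviation from the mean of its RNA type in the tissue, on log2 TMM-scaled CPM. Over the 12 root libraries SDI1 ran closest with SHM7 (Pearson r 0.96), and SDI2 with LSU1 (0.90), LSU2 (0.88) and SDI1 (0.84). SULTR1;1 ran with SULTR1;2 (0.80) and SULTR4;2 (0.67), and SULTR4;2 against LSU1 (-0.60). The same pairs had 0.93, 0.88, 0.95, 0.77, 0.81, 0.75 and -0.85 when each library was set against its own group of 3, which removes the difference between media. GGCT2;1 ran with LSU2 (0.72, and 0.79 within groups) and SDI1 (0.64 and 0.85), and against SULTR1;1 (-0.59 and -0.66). The LSU1 values rest on only 4 to 42 counts in each root TRAP library. Over all 36 pairs the median r was 0.46, and 0.29 within groups. With the reads behind the deposited TPM of root total MgD replicate 3 the medians were 0.40 and 0.32.

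**Figure D4:**
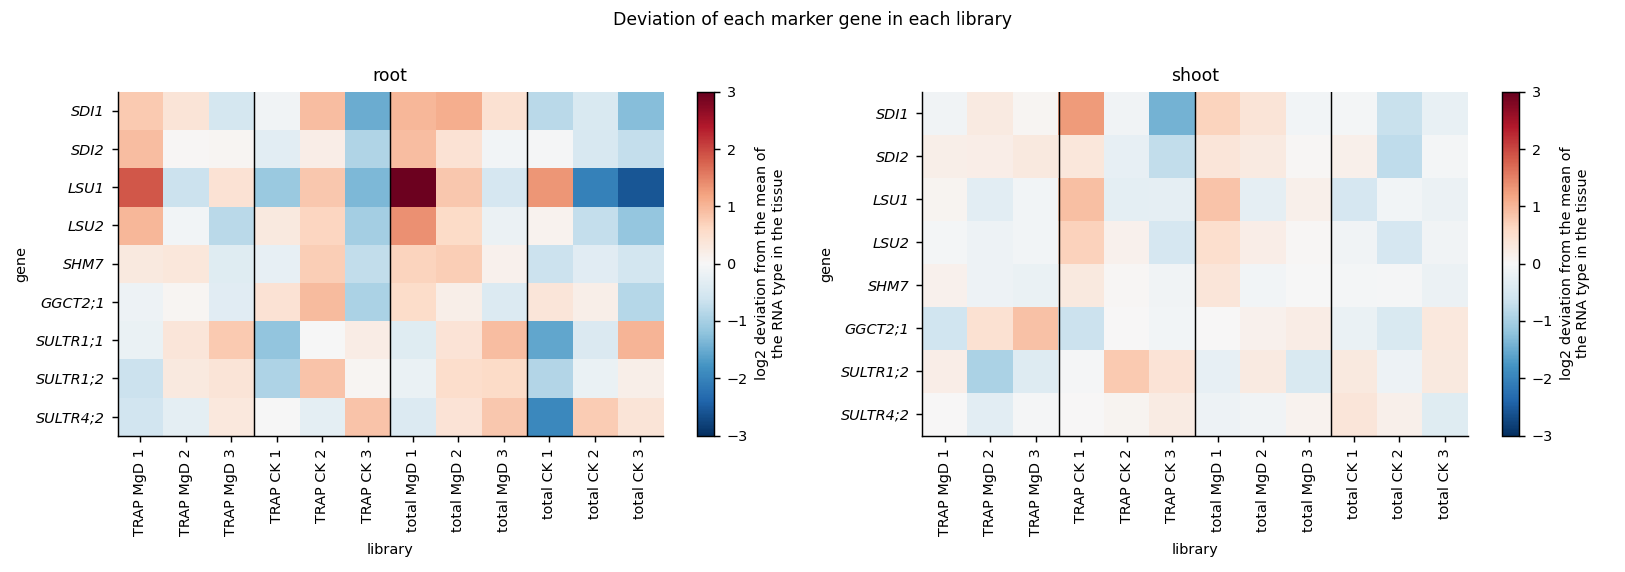
Deviation of each tested marker gene in each library, as log2 TMM-scaled CPM minus the mean of the 6 libraries of its RNA type in the tissue; rows are genes, columns are libraries, red is higher and blue lower. In root, TRAP CK replicate 2 is red and TRAP CK replicate 3 blue in all 5 rows SDI1, SDI2, LSU1, LSU2 and SHM7, while in the 3 SULTR rows TRAP CK replicate 3 is not blue.

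Likeness was also ranked among all genes. Among 17351 genes ranked by correlation in root, the 100 nearest to SDI1 (0.576% of genes) held 3 of the 8 other members, SHM7, LSU2 and SDI2. The 100 nearest to SDI2 held LSU1, LSU2 and SDI1, those nearest to LSU1 held SDI2 and LSU2, and those nearest to LSU2 held SDI2 and SDI1. No other member was among the 100 nearest of SULTR1;1, SULTR1;2, SULTR4;2 or GGCT2;1. The genes outside the list whose pattern was most like the members' mean in root were AT4G37900 (r 0.96), APR3 (0.93), PLL4 (0.92), ATSYTF (0.91) and CML23 (0.90), over 12 libraries. In shoot, SDI1 ran with LSU2 (0.91) and SDI2 (0.84) and LSU1 with SHM7 (0.85), while GGCT2;1 ran against SHM7 (-0.60), and the median r over 28 pairs was 0.00802. The genes nearest to the members' mean in shoot were AT1G28600 (0.95), APR1 (0.94), SWEET13 (0.92), AT3G28270 (0.92) and ABCI17 (0.91). All genes of a library share its RNA, depth and scaling, and these correlations are descriptions without a test.

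The mean of the members' standardised deviations gives each library 1 value. In root total RNA it was 0.79, 0.75 and 0.28 under MgD, against -0.72, -0.41 and -0.68 under CK, so that the media did not overlap. With the reads behind the deposited TPM, MgD replicate 3 had -0.38 and lay inside the CK range of -0.61 to -0.25. In root TRAP RNA the values were 0.34, 0.14 and -0.04 under MgD and -0.42, 0.75 and -0.76 under CK, with CK replicate 2 the highest of the 6. In shoot total RNA they were 0.77, 0.15 and 0.04 under MgD and 0.06, -0.68 and -0.33 under CK, and in shoot TRAP RNA 0.01, -0.45 and 0.04 under MgD and 0.87, 0.14 and -0.60 under CK. The choice of members was made with earlier results of these libraries known, and no test was made on this mean.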

How the data were processed

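RNA-seq of 24 Arabidopsis libraries was analysed, 3 in each of 8 groups of tissue, RNA type and medium; 8 further samples that the labels mark as removed were not analysed here. The deposited tables hold raw read counts per gene and TPM values (transcripts per unit of library size, corrected for gene length) made by the authors. Per the submitters' processing notes, FastQC, Trimmomatic, STAR 2.7.6a and Subread 2.0.0 were used; the genome build, strand setting and handling of reads with several matches are not given in the sources used here. Of low counts (1 to 20), 81.5% to 92.6% were even, as when both mates of a fragment are counted, so counting error is larger than the counts show.

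TPM was recomputed from the deposited counts and the gene lengths that counts and TPM imply. The limma alternatives used the deposited TPM instead. The reads behind the deposited TPM of root total MgD replicate 3 came out whole within 0.05 for 100% of 10966 genes with up to 200 reads. Counts were tested with edgeR 4.0.16 in R 4.3.3: filterByExpr, TMM scaling, robust quasi-likelihood F test, Benjamini-Hochberg adjustment over all genes tested, threshold 0.05. The 12 libraries of a tissue entered 1 model, and all 24 for comparisons between tissues. Alternatives were DESeq2 1.42.0, limma 3.58.1 on log2(TPM + 1) and log2(TPM + 0.1), RLE size factors, no filter, the recovered reads, a replicate block by title number or by original library number, 1 model of all libraries, and leaving out each library. Tests were checked on simulated data. Similar genes were found with blastn 2.17.0, and 27445 of 27655 loci were present in the RefSeq table.

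Title numbers pair root TRAP with root total libraries within a medium: the deviations of same-numbered libraries from their group means correlate at 0.239 to 0.528 in CK and 0.307 to 0.443 in MgD, over 3 pairs each. They do not pair MgD with CK: in root the correlations ran from -0.02 to 0.43 in total RNA and from 0.03 to 0.45 in TRAP RNA. By original library number, root MgD and CK gave only 2 pairs in each RNA type, too few to say that they pair. These pairs correlated at 0.42 and 0.43 in total RNA and at 0.03 and 0.31 in TRAP RNA. Each replicate block was set over both media of a tissue. Intervals were not computed for counts. Floors of 3 counts treat each count as independent, and with most low counts even the folds against them may be too large. Genes are named if they are members, or by rule: from each other list the genes called (at most 4, by adjusted p) or, with none called, the 2 with the smallest p, and the 5 genes most like the members' mean. The members, lists and tests were chosen with earlier results of these data known.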

Additional observations from a re-analysis of the deposited data

How the results depend on the processing

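No direction of a called member value was reversed under any alternative run. Of 1904 alternative values of single members, 1763 kept direction and side of the threshold, 22 passed only in the alternative, 22 only in the main result, and 97 uncalled values changed sign; the cause was not tested. For MgD against CK, the number of genes called was 0 in each comparison, but DESeq2 called 1 in root total, 170 in root TRAP and 16 in shoot TRAP RNA, limma on log2(TPM + 1) 1 in root total, and 1 model of all 24 libraries 7 in root total and 133 in root TRAP. With the title's replicate block 64 genes were called in shoot TRAP RNA, and with the original-number replicate block 2 there and 1 in shoot total RNA. For the response in TRAP minus total RNA, DESeq2 called 5 genes in root and the replicate block 6 in shoot. No member was among the calls in any of these. For the response in root minus shoot (5 genes in total RNA), DESeq2 called 14 in total and 144 in TRAP RNA, limma 3 and 0 with the pseudocounts 1 and 0.1, the recovered reads 2, and either replicate block 2.

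For TRAP against total RNA, members called were 4 in root CK (2 with limma at either pseudocount), 2 in root MgD (4 with either block), 3 in shoot CK (5 with no filter, 1 in the model of all libraries) and 1 in shoot MgD (2 with no filter, with the replicate block or in the model of all libraries, and 4 with the original-number replicate block). In shoot, title numbers gave correlations of -0.43 to 0.48 between the groups compared, each comparison with a negative one, and do not pair them. Original numbers gave 0.17 to 0.48, all positive, but the groups compared share only 2 of them, too few to say that they pair. Their block gave 5 of 8 members positive in shoot TRAP RNA, MgD over CK, with a median of 0.05 instead of -0.24, and a median of 0.12 instead of 0.31 in shoot total RNA. Leaving out 1 library at a time gave 3 to 5 members in root CK, 2 in root MgD, 2 to 6 in shoot CK, 1 to 3 in shoot MgD, and 5 to 6 and 6 to 8 for root against shoot in total and TRAP RNA. Genes called ran from 7792 to 9983 in root CK, 9074 to 9546 in root MgD, 7438 to 8581 in shoot CK, 7496 to 8083 in shoot MgD, 12749 to 13305 and 13709 to 14155 between tissues, 0 to 22 and 0 to 133 for the response between tissues, and 0 to 1 for the medium and for its interaction with RNA type. Depth limits BGLU28, SULTR1;1 in shoot, LSU1 in root TRAP RNA and root total CK, and GGCT2;1 in the shoot CK groups, which rest on under 100 counts in a group.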
